A study of Mus musculus with 2 samples.

Results

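The nuclear genes of oxidative phosphorylation were followed through the cell types of 2 mouse mammary tumours by single-cell RNA sequencing. They were taken by symbol, as the rows for the Nduf subunits, Sdha to Sdhd, the Uqcr genes with Cyc1, the structural Cox genes without Cox4i2, and the Atp5 genes. The pattern found 84 of 31054 gene rows, under 83 symbols, because Atp5o is listed as 2 overlapping gene models and all of its reads fell on 1 of them. Sorted by product, 35 rows belong to complex I, 4 to complex II, 9 to complex III, 17 to complex IV and 16 to complex V. The remaining 3 rows (Ndufa4l2, Cox7a2l and Atp5s) are related genes that are not constitutive subunits and count in the total. Over both libraries 80 rows had at least 50 UMIs (unique molecular identifiers, each standing for 1 captured RNA molecule), and 2 rows, the other Atp5o model and the testis isoform Cox7b2, had 0.

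Both libraries came from C57BL/6 mice with the inAd-Chaser-mTmG alleles: Adiponectin-rtTA, TRE-Cre and the Rosa26R mT/mG reporter. In these mice doxycycline switches cells in which the adiponectin promoter is active from tdTomato to EGFP, and both libraries held cells sorted as EGFP positive and tdTomato negative. The Met-1 xenograft library came from an implanted tumour and the PyMT tumour library from mice carrying the PyMT transgene. The sample label names Met-1 as the implanted line, whereas the series' design text names EO771; the sample label is followed. Each group is 1 library, and neither the number of mice behind it nor their age is given in the sources used here.

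The inner mitochondrial membrane carries 5 protein complexes that pass electrons from NADH and succinate to oxygen and use the resulting proton gradient to make ATP. Complex I (NADH dehydrogenase) and complex II (succinate dehydrogenase) take up electrons, complex III (cytochrome bc1) and complex IV (cytochrome c oxidase) pass them on, and complex V is the ATP synthase. Complex II is built from nuclear genes alone, whereas each of the others also needs subunits encoded by mitochondrial DNA, which are read here as 13 mt- rows. Several subunits of complexes IV and V exist as isoforms that differ between tissues.

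The kept cells comprised 2112 of 2451 barcodes in the Met-1 xenograft and 589 of 619 in the PyMT tumour, with median depths of 7684 and 3470 UMIs. Cells were assigned to 8 classes by marker UMIs, none of them an oxidative phosphorylation gene, and the class names below mean cells that carry those markers. In the Met-1 xenograft these were 839 macrophages or monocytes (hereafter macrophages), 37 neutrophils, 289 T cells, 77 NK cells, 244 B cells, 216 fibroblasts, 97 mural cells and 32 luminal epithelial or tumour cells (hereafter luminal cells). In the PyMT tumour they were 189 macrophages, 159 neutrophils, 34 T cells, 27 B cells and 90 luminal cells, while NK cells (5), fibroblasts (11) and mural cells (0) were under the minimum of 20 cells. The 6 markers of mature adipocytes together reached at most 9.63 CPM (UMIs scaled to a class total of 1000000) in any class of either library. Adiponectin and the other adipocyte genes were thus at or near 0 in these sorted cells. Of the kept cells, 86.7% in the Met-1 xenograft and 87.4% in the PyMT tumour had a class, and 96 and 13 cells lay within 10 percentage points of the limit on markers of another type. The libraries shared 0 barcodes, and 96.3% of kept cells in the Met-1 xenograft and 80.5% in the PyMT tumour had a UMI of the EGFP reporter.

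Promoter sequences are shown for 4 members on which the results below turn, since their letters differ in the elements that many respiratory genes share. Promoters of 300 bases, from 250 before to 50 after the start, were available from RefSeq (GRCm38.p6) for 66 of the 83 symbols, 71 promoters in all. The motifs CCGGAAG (the core bound by ETS factors such as GABP), AAGATGGCG (a form of the YY1 site) and TATAAA were searched on both strands. So was 1 palindromic form of the site of nuclear respiratory factor 1 (NRF1), whose letters are the first capitals in Cox6a1. Capitals mark NRF1, ETS and YY1 motifs, as read on either strand, and none overlaps another here.
Cox6a1, chr5:115348909-115349208, minus strand: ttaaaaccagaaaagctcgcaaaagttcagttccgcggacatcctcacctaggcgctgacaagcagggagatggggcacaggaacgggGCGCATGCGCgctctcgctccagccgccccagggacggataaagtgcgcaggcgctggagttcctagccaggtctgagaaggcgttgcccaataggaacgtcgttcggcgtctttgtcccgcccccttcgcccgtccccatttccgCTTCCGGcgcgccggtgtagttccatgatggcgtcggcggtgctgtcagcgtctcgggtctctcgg
Cox8a, chr19:7217567-7217866, minus strand: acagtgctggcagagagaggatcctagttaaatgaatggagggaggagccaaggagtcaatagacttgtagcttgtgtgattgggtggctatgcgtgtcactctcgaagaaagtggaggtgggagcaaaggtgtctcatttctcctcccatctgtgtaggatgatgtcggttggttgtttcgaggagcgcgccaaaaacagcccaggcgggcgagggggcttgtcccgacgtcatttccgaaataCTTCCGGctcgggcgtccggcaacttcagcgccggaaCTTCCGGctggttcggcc
Uqcr11, chr10:80406772-80407071, minus strand: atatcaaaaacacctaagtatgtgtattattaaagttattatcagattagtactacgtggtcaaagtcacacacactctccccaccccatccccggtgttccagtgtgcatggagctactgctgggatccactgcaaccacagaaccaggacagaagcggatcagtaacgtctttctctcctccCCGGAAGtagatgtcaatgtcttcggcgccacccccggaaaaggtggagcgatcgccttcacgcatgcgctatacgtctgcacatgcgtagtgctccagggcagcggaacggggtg
Ndufa4, chr6:11907401-11907700, minus strand: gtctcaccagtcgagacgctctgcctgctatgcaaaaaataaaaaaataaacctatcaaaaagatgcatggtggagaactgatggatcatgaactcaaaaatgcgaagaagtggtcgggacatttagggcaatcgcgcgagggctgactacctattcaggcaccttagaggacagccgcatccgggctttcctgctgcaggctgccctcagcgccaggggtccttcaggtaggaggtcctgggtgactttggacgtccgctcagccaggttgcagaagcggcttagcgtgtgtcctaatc

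The NRF1 motif was present in 5 of the 71 member promoters (7.04%), those of Atp5g2, Atp5k, Cox6a1, Ndufa11 and Uqcrc1, and in 0.971% of all 32851 promoters of the same length. The ETS core was present in 22.5% of member promoters and in 8.86% of all promoters. The YY1 motif stood at 9.86% of member promoters against 1.4% of all, and TATAAA at 11.3% against 13.6%. Member promoters had a median GC content of 57.3%, against 52.7% over all promoters, and the part of base composition in these shares was not tested. The window of Ndufa4 held none of the 3 factor motifs.

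The summed level of the nuclear genes differed by class, and luminal cells carried the most in both tumours. In the Met-1 xenograft it stood at 29431 CPM in luminal cells (95% counting interval 29035 to 29830), 25243 in NK cells, 24393 in mural cells, 23139 in T cells, 19328 in fibroblasts, 15227 in macrophages, 14014 in B cells and 12398 in neutrophils (11731 to 13095). The highest class was 2.37-fold above the lowest, and no neighbouring pair in this order had touching intervals. In the PyMT tumour it stood at 28940 CPM in luminal cells, 23684 in T cells, 18486 in macrophages, 15595 in neutrophils and 14293 in B cells (13342 to 15293), a span of 2.02-fold, with the intervals of neutrophils and B cells touching. These sums are a share of the captured RNA and do not give the amount of RNA in a cell. The intervals cover counting error only, cells of 1 library are not replicates, and no test between groups was possible with 1 library each.

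The mt- rows of the same cells followed another order. In the Met-1 xenograft their sum was 55545 CPM in luminal cells, 44963 in B cells, 35163 in mural cells, 28197 in T cells, 25990 in NK cells, 24171 in fibroblasts, 20016 in macrophages and 8327 in neutrophils. In the PyMT tumour it was 33724 CPM in luminal cells, 31362 in B cells, 20971 in T cells, 17921 in macrophages and 8608 in neutrophils. The place of luminal cells in the Met-1 xenograft rested on deep cells: with every cell weighing the same, B cells had the highest mt- level there, and the median cell had 33524 CPM among luminal cells and 41915 CPM among B cells. B cells combined a low nuclear sum with a high mitochondrial one in both libraries. The ratio of the mt- sum to the nuclear sum was 3.21 in B cells of the Met-1 xenograft (3.15 to 3.27) and 2.19 in those of the PyMT tumour (2.02 to 2.38), the highest of any class in either library. Neutrophils had the lowest, 0.672 in the Met-1 xenograft and 0.552 in the PyMT tumour, and all other classes lay between 0.885 and 1.89. Cells with over 10% of UMIs in the mt- rows had been left out, so the mt- sums are capped from above.

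**Figure D1:**
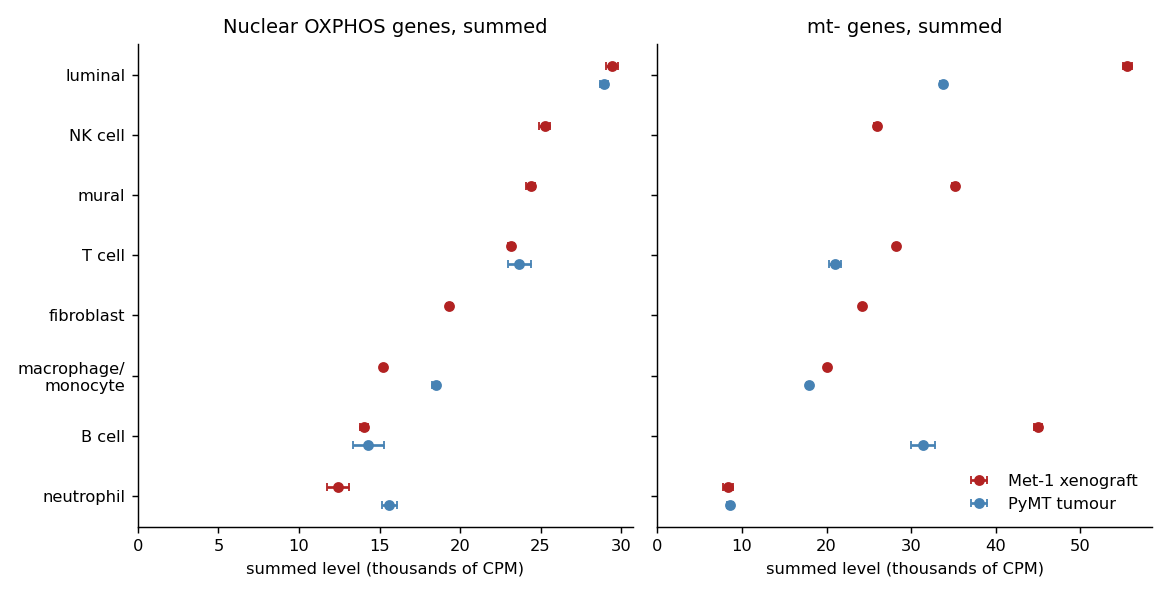
Summed level of the nuclear oxidative phosphorylation genes (left) and of the 13 mt- rows (right) in each cell class, in CPM on linear axes, for the Met-1 xenograft (red) and the PyMT tumour (blue); points are 1 library each and bars are 95% counting intervals. Luminal cells have the highest sums in both panels, although B cells have the highest mt- level in the Met-1 xenograft when every cell weighs the same, and B cells are low on the left and high on the right.

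The proportions of the complexes varied little between classes. In the Met-1 xenograft complex I made up between 25.6% (T cells) and 31.9% (fibroblasts) of the nuclear sum. Complex III made up between 9.33% (NK cells) and 11.7% (B cells), complex IV between 25.7% (mural cells) and 33.1% (neutrophils), and complex V between 27.3% (neutrophils) and 32.8% (T cells). In the PyMT tumour neutrophils also had the largest share of complex IV, 32.8%, and the smallest of complex V, 25.5%, and T cells the largest of complex V, 31.8%. Complex II departed from the others in macrophages. Macrophages stood at 0.706 of the pooled other classes for the nuclear sum in the Met-1 xenograft (0.701 to 0.712) but at 1.02 for complex II (0.963 to 1.07), and in the PyMT tumour at 0.713 for the sum and 0.931 for complex II (0.843 to 1.03). Macrophages thus had the largest complex II share of any class, 2.14% in the Met-1 xenograft and 2.21% in the PyMT tumour.

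Within complex II, the flavoprotein gene Sdha was among the evenest members. It ranged between 67.5 CPM in fibroblasts and 104 CPM in B and luminal cells of the Met-1 xenograft, a 1.54-fold span, the smallest of any member in that library. In the PyMT tumour the span of Sdha was 1.35-fold, also the smallest. Sdhb, the iron-sulphur subunit, spanned 57.8 CPM in neutrophils to 146 CPM in luminal cells of the Met-1 xenograft, and 68.1 CPM in B cells to 191 CPM in T cells of the PyMT tumour. Sdhc and Sdhd, the membrane anchors, were lower in B cells than in macrophages: Sdhc had 29.8 against 41.6 CPM and Sdhd 43.1 against 85.0 CPM in the Met-1 xenograft.

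For complex I the members with the most UMIs were the accessory subunits Ndufa13, Ndufa2 and Ndufa7. Ndufa13 ranged between 202 CPM in B cells and 525 CPM in NK cells of the Met-1 xenograft, and between 273 CPM in B cells and 523 CPM in T cells of the PyMT tumour. Ndufa7 was highest in luminal cells, at 504 CPM in the Met-1 xenograft and 409 CPM in the PyMT tumour. For complex III they were Uqcrh, Uqcrb and Uqcrq. Uqcrh, the hinge protein, did not follow the sum: B cells, near the bottom for the sum, had 689 CPM in the Met-1 xenograft and 835 CPM in the PyMT tumour, while luminal cells had 555 CPM and 607 CPM. For complex IV they were Cox8a, Cox4i1 and Cox7c, and for complex V Atp5e, Atp5l and Atp5g2. Atp5e, the epsilon subunit, had its highest levels in NK cells (1297 CPM) and T cells (1259 CPM) of the Met-1 xenograft, against 719 CPM in its luminal cells.

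Luminal cells held the highest level of most members. Of the 80 rows with at least 50 UMIs, 48 were highest in luminal cells of the Met-1 xenograft and 55 in luminal cells of the PyMT tumour. Set against the pooled other classes of its library, a member was counted as 2-fold higher or lower from the ratio of (CPM + 10), where at least 1 side had 50 UMIs. By this count 9 of 80 members were higher in luminal cells of the Met-1 xenograft, where 7.2% of all genes measured were, and 8 of 74 in those of the PyMT tumour, where 16.8% were. The share of members past 2-fold was thus above that of all genes in the Met-1 xenograft and below it in the PyMT tumour. In the other direction 2 members of the Met-1 xenograft were lower (15% of all genes), Ndufa4l2 and Cox6a2, and 0 of the PyMT tumour (18.4%). Cox7c, Ndufa4, Ndufb2, Ndufb9 and Uqcr11 were in the higher counts of both tumours. Ndufa4, a complex IV subunit long taken for one of complex I, had 933 CPM in luminal cells and 272 CPM in the other classes of the Met-1 xenograft, and 812 and 228 CPM in the PyMT tumour. Ndufb9, an accessory complex I subunit, had 647 and 198 CPM in the Met-1 xenograft and 435 and 166 CPM in the PyMT tumour. Uqcr11, the smallest complex III subunit, whose promoter is printed above, had 569 and 209 CPM in the Met-1 xenograft and 564 and 228 CPM in the PyMT tumour. The median log2 ratio of the members was 0.61 in the Met-1 xenograft, against -0.07 over all genes, and 0.59 in the PyMT tumour, against 0.18. The ratio lay above 0 on the log2 scale for 74 of 80 members in the Met-1 xenograft and for 70 of 74 in the PyMT tumour. Cox7c is 1 of 11 members with a near-identical copy elsewhere in the annotation, and its count is uncertain.

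Neutrophils were the lowest class for 42 members in the Met-1 xenograft and for 34 in the PyMT tumour. Against the other classes, 25 of 80 members were 2-fold lower in neutrophils of the Met-1 xenograft, where 32.6% of all genes were, and 30 of 75 in those of the PyMT tumour, where 36.7% were. These shares lay close to the background. In both counts were 18 members, which is 72% of the Met-1 xenograft's and 60% of the PyMT tumour's. Overlaps over all genes were not computed, so neither these 18 nor the overlaps in other classes can be set against a background. No member was 2-fold higher in neutrophils of the Met-1 xenograft (0 of 80, against 6.79% of all genes) or of the PyMT tumour (0 of 75, against 8.91%). The 18 included the 3 c-ring genes of the ATP synthase, Atp5g1, Atp5g2 and Atp5g3, and the catalytic-core genes Atp5a1 and Atp5c1. Atp5g2 had 116 CPM in neutrophils of the Met-1 xenograft and 146 CPM in those of the PyMT tumour, against 365 to 700 CPM in the other classes of the Met-1 xenograft and 290 to 632 CPM in those of the PyMT tumour. Atp5g1 had 67.4 CPM in neutrophils of the Met-1 xenograft and 83.6 CPM in those of the PyMT tumour, and Atp5g3 86.6 and 52.3 CPM, while luminal cells had 611 and 534 CPM of Atp5g1 and 385 and 473 CPM of Atp5g3. All 3 genes code for the same mature protein and were lowest in neutrophils in both tumours. Atp5g1 has a near-identical copy in the count table, so its own counts are uncertain. Ndufc2, an accessory complex I subunit, had 19.3 CPM (2 UMIs, 2.33 to 69.5) and 48.8 CPM (26.7 to 81.8) in neutrophils of the Met-1 xenograft and of the PyMT tumour. Cox8a was not low in neutrophils, with 1020 CPM in neutrophils of the Met-1 xenograft and 1003 CPM in those of the PyMT tumour, above the 647 and 671 CPM of macrophages. Neutrophils were also shallow, with median depths of 2725 UMIs in the Met-1 xenograft and 1641 UMIs in the PyMT tumour. Among neutrophils of the PyMT tumour, the nuclear sum of the 53 deepest was 0.815 of that of the 53 shallowest (0.757 to 0.878).

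Ndufc2 was high in macrophages and low in neutrophils. Macrophages had 286 CPM of Ndufc2 in the Met-1 xenograft (274 to 299) and 277 CPM in the PyMT tumour (252 to 303), behind only luminal cells at 430 and 395 CPM, although macrophages were low for the sum. Its ratio to the pooled other classes in the Met-1 xenograft was 1.52, the largest of any member in macrophages. The next was Cox5a, a nuclear-encoded subunit of complex IV, with 357 CPM in macrophages and 287 CPM in the other classes. Of 79 members 0 were 2-fold higher and 2 were 2-fold lower in macrophages of the Met-1 xenograft, where 8.3% and 14.1% of all genes were. The corresponding counts for the PyMT tumour were 0 and 2 of 75, against 11% and 18.9% of all genes, and Ndufa4 was in both lower counts, with 180 CPM in macrophages of the Met-1 xenograft and 204 CPM in those of the PyMT tumour.

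B cells had 6 of 80 members 2-fold lower in the Met-1 xenograft, where 19.7% of all genes were, and 27 of 75 in the PyMT tumour, where 43.6% were, and Ndufa8, Ndufb9, Ndufc2 and Uqcr11 were in both counts. None was 2-fold higher in B cells of either tumour, where 4.01% of all genes were in the Met-1 xenograft and 7.61% in the PyMT tumour. T cells of the Met-1 xenograft had 1 of 80 members lower, Ndufa4l2 (18.1% of all genes), and 0 higher (4.15%), and T cells of the PyMT tumour 2 of 75 lower, Ndufc2 and Uqcr11 (27.7%), and 0 higher (5.53%). Fibroblasts had 2 of 80 lower, against 11.5% of all genes, which were Cox6a2 and Cox5a, and 0 higher (14.1%). Cox5a stood at 171 CPM in fibroblasts and 246 CPM in mural cells of the Met-1 xenograft, against 552 CPM in NK cells. The members highest in fibroblasts against the other classes were Ndufs5, a complex I subunit, with 229 and 132 CPM, and the testis isoform Cox6b2, with 12.4 and 4.51 CPM. In T cells they were Uqcrh, with 843 and 475 CPM, and Atp5h, a stalk subunit of the ATP synthase, with 703 and 406 CPM, both under 2-fold. In B cells they were Sdha, with 104 and 71.7 CPM, and Uqcrh, with 689 and 521 CPM. In NK cells Atp5f1, another stalk subunit, had 675 and 332 CPM, a ratio of 2.03 (1.86 to 2.22).

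**Figure D2:**
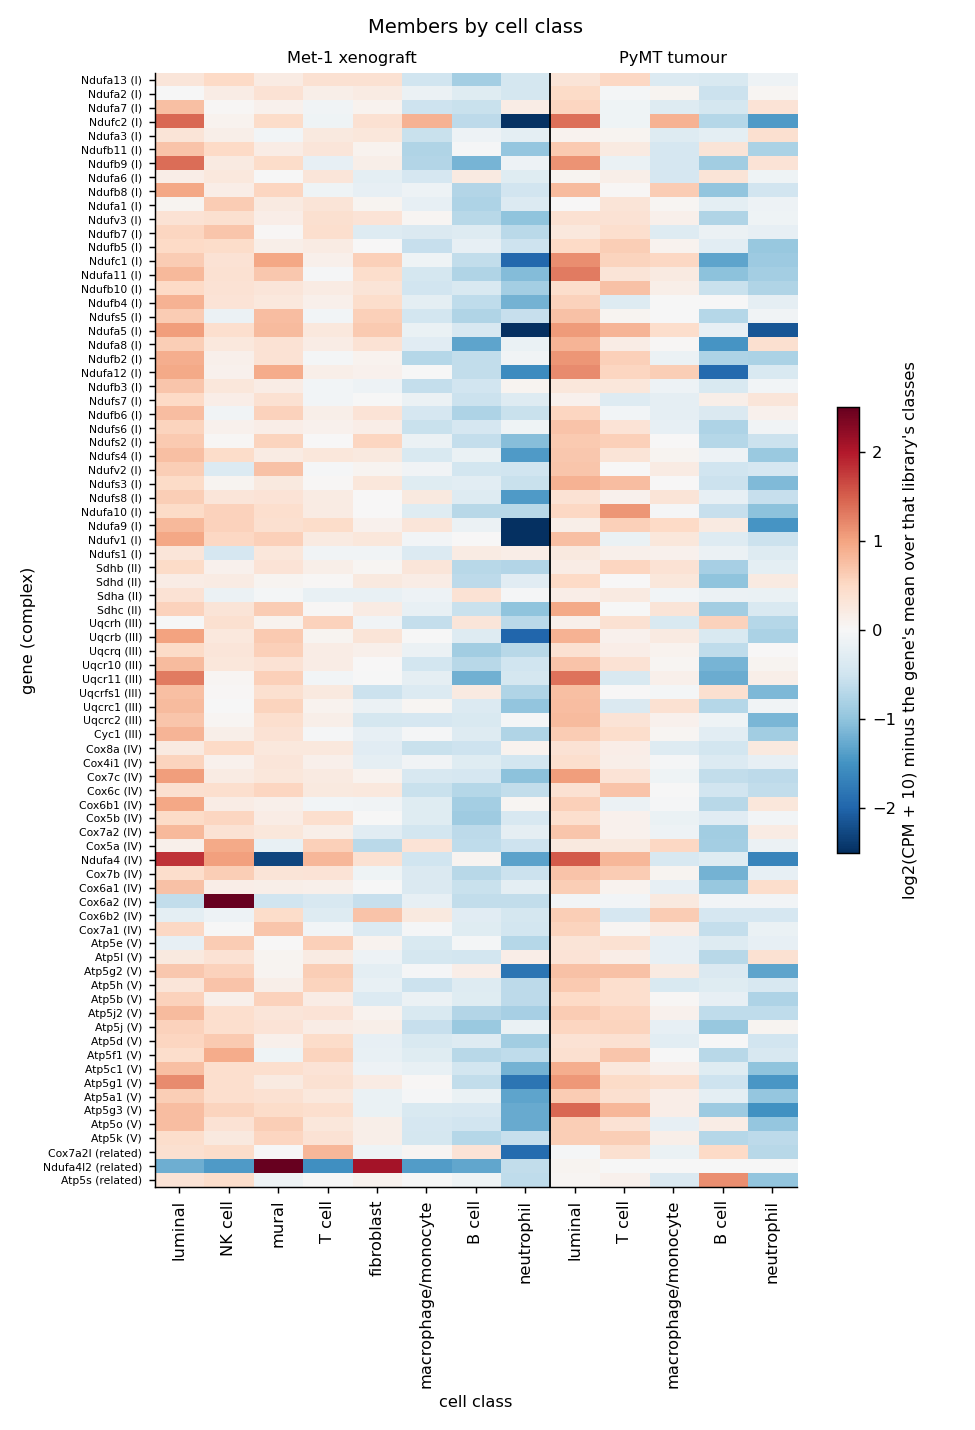
Level of each member with at least 50 UMIs in each cell class, as log2(CPM + 10) minus that gene's mean over the classes of the same library; members run down the page by complex (roman numeral) and by UMIs within it, and red is above the mean. The luminal columns are red for most rows, and Ndufa4 and Ndufa4l2 show opposite colours in the mural column.

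Mural cells (pericytes and vascular smooth muscle), found in the Met-1 xenograft alone, had the highest Ndufa4l2 of any class and, together with neutrophils, the lowest Ndufa4. The Ndufa4l2 product is known as a hypoxia-inducible protein that lowers electron transport. Ndufa4l2 (chr10:127514967-127517154, plus strand, GRCm38) had 1241 CPM in mural cells (1177 to 1307), and Ndufa4 (chr6:11900292-11907497, minus strand) had 44.4 CPM (33.1 to 58.4). Ndufa4 was between 180 CPM (macrophages) and 933 CPM (luminal cells) in the other classes except neutrophils, which had 96.3 CPM. The neutrophil value rests on few UMIs and its interval overlaps that of mural cells, so their order is not resolved. Ndufa4l2 was at most 2.78 CPM in luminal, NK, T, B and macrophage classes and had 1 UMI in neutrophils. Of the UMIs of this pair, Ndufa4l2 took 96.5% in mural cells, 25.5% in fibroblasts and at most 0.806% in the luminal, NK, T, B and macrophage classes. With every cell thinned to 2000 UMIs, 83% of 94 mural cells had an Ndufa4l2 UMI (73.8 to 89.9, exact binomial), against 0.258% of 775 macrophages, and 5.32% had an Ndufa4 UMI, against 24.5% of those macrophages. Before thinning, 96.9% of mural cells had an Ndufa4l2 UMI, against 1.19% of macrophages, with median depths of 12244 and 7738 UMIs. Of 79 members, Ndufa4l2 alone counted as 2-fold higher in mural cells, where 8.34% of all genes were, and Ndufa4 alone as lower, where 11% were. Because the mural cells are in the pool of other classes, Ndufa4l2 counted as lower in each of the luminal, macrophage, T, NK and B classes. Beside it, Cox4i2, the isoform of the complex IV subunit Cox4i1 known from lung and from oxygen-sensing cells, had 498 CPM in mural cells (458 to 540) and at most 2.46 CPM in the other classes of the Met-1 xenograft, while Cox4i1 stood at 952 CPM in mural cells, within its span of 558 to 1139 CPM over the other classes. Ndufa12, an accessory complex I subunit, followed Ndufa4l2 with 210 CPM in mural cells and 112 CPM in the other classes, a ratio of 1.88 (1.64 to 2.15).

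Fibroblasts of the Met-1 xenograft were the only other class with Ndufa4l2 above 10 CPM, at 116 CPM (105 to 128), beside 340 CPM of Ndufa4. The gene was uneven among them. The 108 fibroblasts with several UMIs of Cilp and Thbs4, several-fold above those of Clec3b and Pi16, had 128 CPM. The 78 with the opposite had 20.8 CPM (13 to 31.5). The 30 that met neither rule, with few of these UMIs or a smaller difference, had 339 CPM (279 to 409). Mural markers moved with it in part: the 144 fibroblasts with a mural marker UMI had 139 CPM of Ndufa4l2, against 46.7 CPM (33.6 to 63.1) in the 72 without. The mural marker sum was 106 CPM in fibroblasts, against 8645 CPM in mural cells, and Cox4i2 was at 0.549 CPM in fibroblasts. The part that RNA of mural cells plays in the fibroblast values was not tested.

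**Figure D3:**
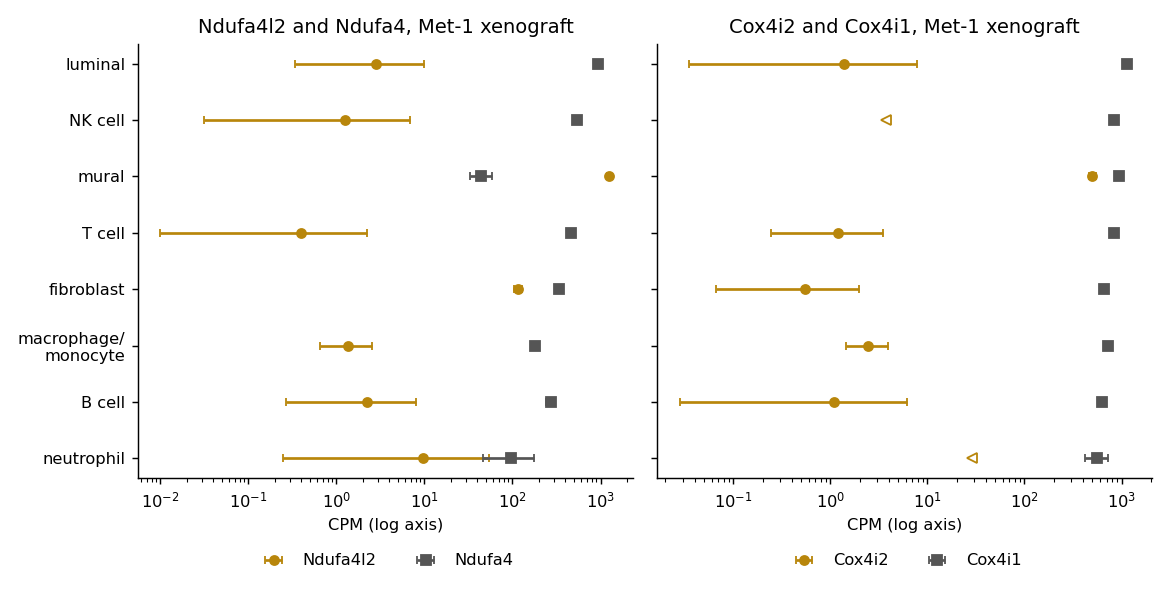
Levels of Ndufa4l2 and Ndufa4 (left) and of Cox4i2 and Cox4i1 (right) in the classes of the Met-1 xenograft, in CPM on a log axis with 95% counting intervals; open triangles mark the level of 3 UMIs where none was counted. Mural cells have the highest Ndufa4l2 and Cox4i2 of the 8 classes and the lowest Ndufa4. Their Ndufa4 interval overlaps that of neutrophils, and Cox4i1 shows no such shift.

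Among the widely expressed isoform genes, luminal cells were the highest class for Cox6a1, Cox6b1 and Cox7a2, but not for Cox8a in the Met-1 xenograft, which had 1360 CPM in NK cells and 1120 CPM in luminal cells. Cox6b1 had 851 CPM in luminal cells of the Met-1 xenograft and 808 CPM in those of the PyMT tumour, with its lowest levels in B cells, 236 and 324 CPM. Cox7a2 had 658 and 573 CPM in luminal cells and its lowest levels, 234 and 187 CPM, in B cells as well. The tissue-restricted isoform genes were rare. Cox6a2, the heart and skeletal muscle isoform of Cox6a1, had 170 CPM in NK cells of the Met-1 xenograft (143 to 201) and at most 3.41 CPM in its other classes, but its 137 UMIs came from 9 of 77 NK cells and 51 of them from 1 cell. Cox6a1 itself stood at 312 CPM in NK cells. Of 289 T cells 4 had a Cox6a2 UMI. Among 63 cells left out as mixed because they carried both T and NK markers, 5 had one, for 23.7 CPM. In NK cells, Cox6a2 and Atp5f1 were the 2 of 80 members counted as 2-fold higher, where 3.78% of all genes were, and Ndufa4l2 was the 1 counted as lower (16.4%). Cox7a1, another muscle isoform, had at most 12.2 CPM in any class of the Met-1 xenograft and 12.4 CPM in the PyMT tumour, and Cox6b2, known from testis, at most 12.4 CPM and 10.8 CPM. Cox8b, the muscle isoform of Cox8a, had 30 UMIs in 11 of 90 luminal cells of the PyMT tumour and 1 UMI in those of the Met-1 xenograft, with 0 in macrophages of both. Cox8c had 1 UMI in all.

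In all, 4 classes had at least 30 cells in both libraries and could be set side by side. The nuclear sum was lower in myeloid cells of the Met-1 xenograft. Its ratio to the PyMT tumour was 0.824 in macrophages (0.813 to 0.834) and 0.795 in neutrophils (0.747 to 0.846), against 0.977 in T cells (0.947 to 1.01) and 1.02 in luminal cells (1 to 1.03). The luminal ratio was 0.977, and the T cell ratio 1.03, when mt-, ribosomal protein and haemoglobin genes were left out of the total. In macrophages the 5 complexes stood between 0.783 (complex III) and 0.851 (complex V). Of the cells themselves, the median macrophage had 12474 CPM of nuclear genes in the Met-1 xenograft (quartiles 8824 and 18051) and 18068 CPM in the PyMT tumour (12490 and 23270), so the cells overlapped widely. Ribosomal protein rows moved in the same direction in macrophages, with a ratio of 0.884, and in neutrophils, with 0.896. Their part in the nuclear ratio was not tested. Neutrophils were deeper in the Met-1 xenograft, with median depths of 2725 and 1641 UMIs. Within those of the PyMT tumour the deepest had 0.815 of the nuclear sum of the shallowest, as given above. The part of depth in the neutrophil ratio was not tested.

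Member by member, no gene passed 2-fold in either direction in macrophages (0 of 75, where 5.33% of all genes were higher and 1.11% lower), T cells (0 of 75, where 11.1% and 3.67% were) or luminal cells (0 of 74, where 5.68% and 7.27% were). In neutrophils 0 of 30 were higher, where 5.65% of all genes were, and 3 were lower, where 18.8% were. Of these 30 only 4 had 50 UMIs on both sides, and the others, with the 3 lower, passed through the PyMT tumour alone. The minimum therefore tilts the count and median of members in neutrophils towards lower. The median log2 ratio of the members was -0.27 in macrophages, against 0.16 over all genes measured, and 6 of the 75 lay above 0. In neutrophils it was -0.39, against -0.25. In T cells it was -0.02, against 0.10, and in luminal cells 0.02, against -0.04. With genes of at least 50 UMIs on both sides, the medians in macrophages were -0.27 for 74 members and -0.02 over all genes. In neutrophils they were -0.29 for 4 members and 0.02 over 300 genes.

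**Figure D4:**
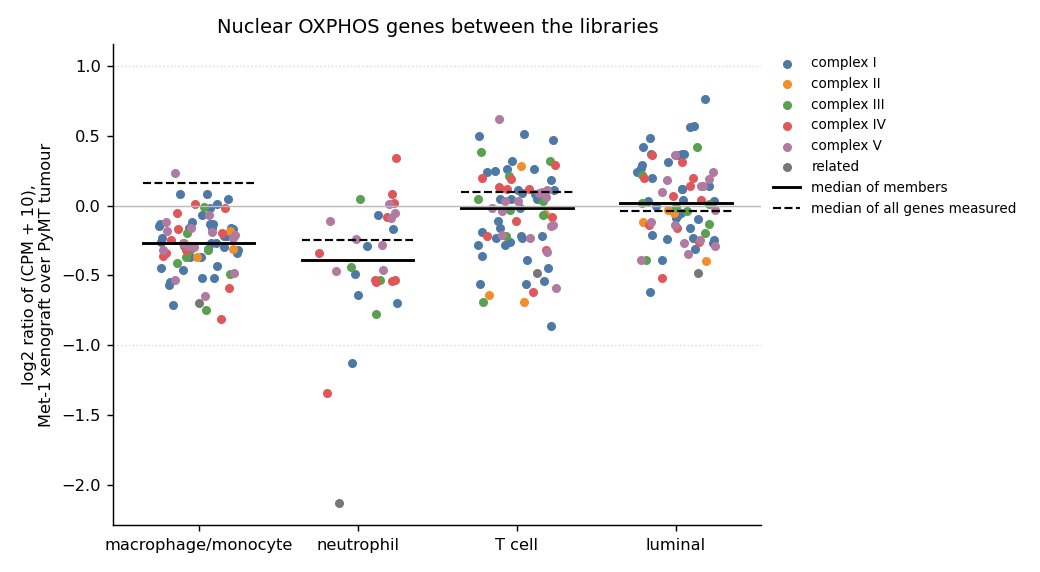
Log2 ratio of (CPM + 10), Met-1 xenograft over PyMT tumour, for each measured member in the 4 classes with enough cells in both libraries, coloured by complex; solid lines are the members' medians and dashed lines the medians of all genes measured. In macrophages the members' line, at -0.27, lies below the line of all genes, at 0.16, while in T cells and luminal cells the members spread about 0.

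Of 30 members measured in all 4 compared classes, 7 had a ratio below 1 in each (Atp5b, Atp5l, Cox4i1, Cox6a1, Cox7a2l, Ndufa3 and Ndufa6), where 32.2% of the 630 genes so measured did, and 0 had one above 1 in each, where 11.9% did. The count of 7 was therefore no more than the background. Cox6a1, a complex IV subunit, was the lowest in macrophages. It had 211 CPM in macrophages of the Met-1 xenograft and 378 CPM in those of the PyMT tumour, a ratio of 0.557 (0.508 to 0.612). The ratios of Cox6a1 in the other classes were 0.386 in neutrophils (0.24 to 0.593), 0.645 in T cells (0.514 to 0.819) and 0.692 in luminal cells (0.61 to 0.784). Cox7a2l, whose product helps complexes III and IV associate into supercomplexes, had 57.8 CPM in neutrophils of the Met-1 xenograft (6 UMIs) and 286 CPM in those of the PyMT tumour, and ratios of 0.608 in macrophages, 0.71 in T cells and 0.713 in luminal cells. Cox4i1 was at 0.775 in macrophages, 0.685 in neutrophils, 0.801 in T cells and 0.895 in luminal cells, with every interval below 1. Ndufa3 was at 0.446 in neutrophils (0.263 to 0.718), the remaining member past 2-fold there. Cox6a1 and Atp5l are among the 11 members with a near-identical copy elsewhere in the annotation, so their counts are uncertain.

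The highest members differed from class to class. Atp5e led in T cells, with 1259 CPM in the Met-1 xenograft and 816 CPM in the PyMT tumour, a ratio of 1.54 (1.31 to 1.84), and in macrophages, at 1.17 (1.09 to 1.26), but stood at 0.927 in neutrophils and 0.919 in luminal cells with intervals that include 1. Ndufb4 followed in T cells at 1.47 (0.927 to 2.46), and Ndufs1, the large iron-sulphur subunit of complex I, in macrophages at 1.08 (0.754 to 1.58). In neutrophils Cox6c (1.28) and Cox7b (1.06) were highest, both with intervals that include 1. In luminal cells they were Ndufb3 at 1.74 (1.41 to 2.13) and Ndufb8 at 1.5 (1.28 to 1.75), while Ndufa2 was the lowest at 0.641 (0.55 to 0.745). The other lowest members were Uqcrc1, a core subunit of complex III, at 0.567 in macrophages (0.49 to 0.657), and Ndufa10 at 0.527 (0.365 to 0.782) and Cyc1, cytochrome c1, at 0.593 (0.394 to 0.928) in T cells.

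The mt- sum did not follow the nuclear one between tumours. Its ratio was 1.12 in macrophages (1.10 to 1.13), 0.967 in neutrophils (0.894 to 1.05), 1.34 in T cells (1.3 to 1.39) and 1.65 in luminal cells (1.63 to 1.67). The luminal ratio rested on few cells. The 16 deepest of the 32 luminal cells of the Met-1 xenograft held 94.4% of the class's UMIs and had 57701 CPM of mt- rows, against 19085 CPM in the other 16, whose median depth was 1612 UMIs. In the PyMT tumour the 45 deeper luminal cells had 32062 CPM and the 45 shallower ones 38652 CPM. With every cell weighing the same, the luminal mt- ratio was 0.905. Nuclear genes were even across that split in the Met-1 xenograft, at 29415 and 29699 CPM. They were not in the PyMT tumour, at 30109 CPM in the deeper and 25471 CPM in the shallower luminal cells.

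The 13 mt- rows did not move as 1 unit. In macrophages mt-Nd1 was at 0.613 (0.587 to 0.64) and mt-Atp6 at 0.74 (0.721 to 0.76), while mt-Co2 was at 1.75 (1.68 to 1.82), mt-Nd5 at 4.13 (3.4 to 5.05) and mt-Nd4l at 5.21 (3.73 to 7.49). Luminal cells gave the same order over a narrower span, with mt-Nd1 at 1.09, mt-Atp6 at 1.13, mt-Co2 at 2.72, mt-Nd5 at 3.48 and mt-Nd4l at 4.47. The complex V rows (mt-Atp6 and mt-Atp8) took 16.2% to 18.9% of the mt- sum in the 8 classes of the Met-1 xenograft and 22.5% to 27.3% in the 5 classes of the PyMT tumour, with no overlap. The nuclear complex V share did not show such a split, with 27.3% to 32.8% in the Met-1 xenograft and 25.5% to 31.8% in the PyMT tumour. With 1 library for each tumour, library and tumour cannot be told apart.

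**Figure D5:**
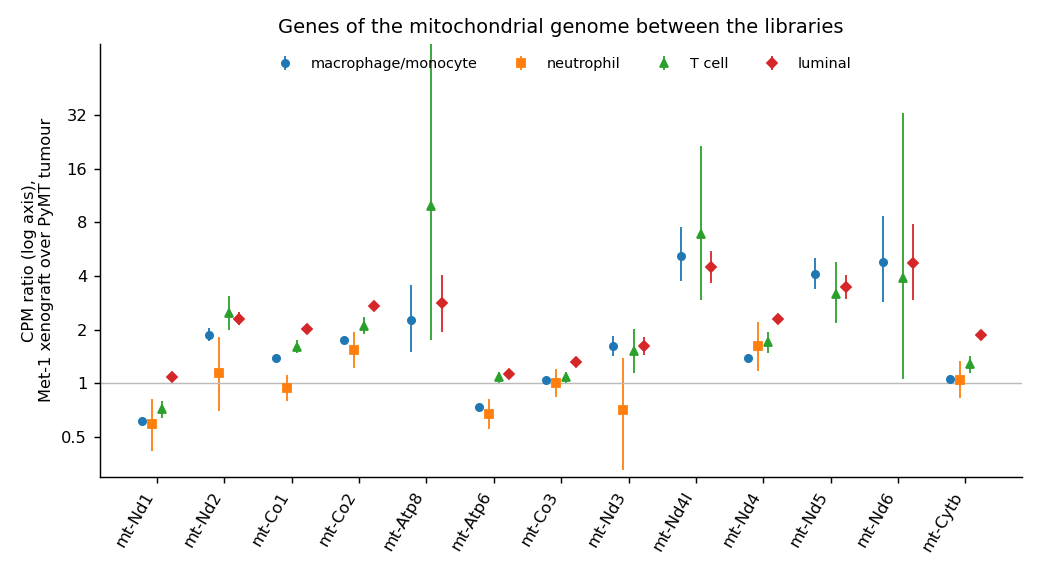
Ratio of CPM, Met-1 xenograft over PyMT tumour, of each mt- row in 4 cell classes, on a log axis with 95% counting intervals; rows with fewer than 50 UMIs in a class over both libraries are not drawn, and the interval of mt-Atp8 in T cells, with 1 UMI in the PyMT tumour, runs past the panel to 392. In each class mt-Nd1 and mt-Atp6 lie below mt-Co2 and mt-Nd5, as far as these are drawn.

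Cells with UMIs of G2 and M phase genes carried more of the nuclear genes in each class that held enough of them; whether these cells were dividing was not tested. After thinning every cell to 2000 UMIs, macrophages of the Met-1 xenograft with at least 2 UMIs of 12 genes of G2 and M phase had 20213 CPM of nuclear genes (19886 to 20544; 54 cells), against 14483 CPM (14388 to 14578; 678 cells) in those with none, a ratio of 1.40 (1.37 to 1.42); 64 shallower cells were left out. Without thinning, the same ratio was 1.41. For the PyMT tumour it was 1.33 in macrophages (1.29 to 1.36) and 1.23 in luminal cells (1.2 to 1.25), and in the Met-1 xenograft 1.43 in T cells (1.4 to 1.46) and 1.1 in NK cells (1.07 to 1.14), all without thinning. The mt- ratio of the same cells was 1.23 in macrophages of the Met-1 xenograft after thinning and 1.07 without it, and 1.2 in macrophages of the PyMT tumour. It was 0.816 in T cells and 0.92 in NK cells of the Met-1 xenograft and 0.969 in luminal cells of the PyMT tumour, so the mt- rows did not share 1 direction. The relation of the nuclear sum to depth differed by class. In the Met-1 xenograft the ratio of the 96 deepest to the 97 shallowest T cells was 1.68 (1.64 to 1.73), that of the 72 deepest to the 72 shallowest fibroblasts 1.38, that of the 81 deepest to the 82 shallowest B cells 1.13, and that of the 279 deepest to the 280 shallowest macrophages 1.07. For the PyMT tumour it was 0.995 in macrophages (0.962 to 1.03) and, as given above, 0.815 in neutrophils. In luminal cells of the PyMT tumour the 45 deeper cells had 30109 CPM and the 45 shallower ones 25471 CPM. Cells with at least 2 G2 or M phase UMIs were deeper than those with none in each unthinned comparison. In luminal cells of the PyMT tumour their median depths were 24370 and 10839 UMIs. The part of depth in the unthinned ratios above, and in the T cell value, was not tested. Leaving out all cells with a G2 or M phase UMI, the ratio between tumours in macrophages was 0.823.

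Macrophages of the Met-1 xenograft also differed among themselves by monocyte genes. The 809 cells with several UMIs of C1q genes, several-fold above those of Ccr2 and Ly6c2, had 14878 CPM of nuclear genes. The 21 with the opposite had 24768 CPM, and the few cells that met neither rule were left out. The ratio was 0.601 (0.585 to 0.617), with 0.575 among cells without a G2 or M phase UMI. All 5 complexes were lower in the C1q cells, between 0.576 (complex III) and 0.796 (complex II, 0.649 to 0.985). Ribosomal protein rows of the same cells were also lower, at 0.641 (0.635 to 0.647), and their part in the nuclear ratio was not tested. The PyMT tumour had too few cells of the monocyte kind for this comparison. Among C1q cells alone, the sum was 14878 CPM in the Met-1 xenograft and 18367 CPM in the PyMT tumour.

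The neighbouring pathways had few genes past 2-fold between tumours. Among all genes measured, 5.33% were 2-fold higher and 1.11% lower in macrophages, and 11.1% and 3.67% in T cells. The shares were 5.68% and 7.27% in luminal cells and 5.65% and 18.8% in neutrophils. Of the 16 assembly factors of complex I and its acyl carrier, none was measured in neutrophils, and 0 passed in the other 3 classes, with medians of -0.02 in macrophages (14 measured), -0.06 in T cells (6 measured) and 0.09 in luminal cells (5 measured). Of the 29 assembly factors of complexes II to V, Cox17, the copper chaperone of complex IV, was the lowest in macrophages (117 CPM in the Met-1 xenograft, 189 CPM in the PyMT tumour) and T cells (155 and 298 CPM), under 2-fold in both. Cox17 was the 1 gene of this list measured in neutrophils, at 308 and 658 CPM, past 2-fold. Among carriers, cytochrome c (Cycs) was lowest in macrophages (111 CPM in the Met-1 xenograft, 212 CPM in the PyMT tumour), and Slc25a5, the ADP/ATP carrier, in T cells (491 and 974 CPM) and luminal cells (267 and 689 CPM), past 2-fold in luminal cells. Of 13 genes of the TCA cycle, the cycle that feeds the chain, Suclg2 was 2-fold lower in T cells (13 measured). Cs, citrate synthase, was 2-fold lower in luminal cells (51.5 and 114 CPM, 12 measured). Of 12 regulators of mitochondrial biogenesis, 8 were measured in macrophages, 4 in T cells, 1 in luminal cells and none in neutrophils. None of those measured passed, with Yy1 highest in macrophages (130 and 74.6 CPM). The summed G2 and M phase genes went opposite ways. They had 316 CPM in macrophages of the Met-1 xenograft and 206 CPM in those of the PyMT tumour. In luminal cells they had 45.9 and 241 CPM, in T cells 242 and 912 CPM, and in neutrophils only 4 and 6 UMIs. In macrophages 2 of 12 were 2-fold higher and 0 lower in the Met-1 xenograft, where 5.33% and 1.11% of all genes were, with Mki67 at 56.9 CPM against 14.4 CPM in the PyMT tumour. In luminal cells of the Met-1 xenograft the 12 genes had 33 UMIs together, so the 3 measured passed that minimum through the PyMT tumour alone. Of these, 0 were higher and all 3 lower, where 7.27% of all genes were, but the minimum largely fixed this count. Ccnb2 had 1.39 CPM there against 43 CPM in the PyMT tumour. In T cells 1 of 4 was lower, where 3.67% were.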

How the data were processed

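The deposited values are raw UMI counts per gene and cell barcode, made by the authors with Cell Ranger 3.1.0 on a mm10 reference, per the submitters' processing notes; the aligner settings are not given in the sources used here. Which transcript end the UMIs read is not stated, so ranks and shares of UMIs between genes describe captured UMIs and not transcript levels. The Met-1 xenograft kept 19768692 UMIs and the PyMT tumour 4293854.

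Barcodes with under 500 UMIs or 200 genes, over 10% of UMIs in mt- rows, or called as doublets by Scrublet in scanpy 1.11.5 (23 and 1) were left out, 339 in the Met-1 xenograft and 30 in the PyMT tumour. A cell took the class with at least 5 marker UMIs from at least 3 markers, with no other type above 33% of it; Ccr7 was dropped from the dendritic markers after it was seen in other cells. The class rule was made with the counts in view. Marker rows made up 3 to 6 of the top 10 genes of each class and no other class's markers did. The class rule selects for this, so it is no independent check of the class names. UMIs were summed per class and library and given as CPM, scaled to 1000000 UMIs per class, with exact Poisson 95% intervals; ratios carry exact conditional binomial intervals. These cover counting error only. With 1 library per group there is no test. The 2-fold count uses (CPM + 10) and genes with at least 50 UMIs on at least 1 side. Thinning drew 2000 UMIs per cell. The counting steps were tested on simulated data.

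The members, the marker and pathway lists and the comparisons were chosen with earlier results of these data known. Named genes come from the 3 members of each complex with the most UMIs, the 2 highest and 2 lowest members of each comparison between tumours, the 2 highest and 1 lowest of each class of the Met-1 xenograft, the isoform families, the Sdh genes, and the ends of each pathway list; others that are named were chosen after their values were seen. Near-identical copies were sought as matches of at least 95% over 150 of the last 250 transcript bases. Alternatives changed the mt- limit, depth minimum, class rule, denominator, cell weighting, doublets, UMI minimum and pseudocount. Scripts ran in Python 3.11.15 with numpy 2.4.6, pandas 2.3.3 and scipy 1.17.1.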

Additional observations from a re-analysis of the deposited data

Results flagged for a closer look

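The direction of the summed nuclear genes between tumours was not the same in all classes. The ratio of the Met-1 xenograft to the PyMT tumour was 0.824 in macrophages and 0.795 in neutrophils, and 1.02 in luminal cells. With 1 library per group the difference between classes was not tested, and the luminal value lies on either side of 1 depending on the processing, as given next.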

How the results depend on the processing

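No paired analysis was possible because each group is 1 library. Of 130 alternative values, 102 were labelled as the same, 24 as moved and 4 as turned in direction. A ratio was the same when it stayed within the counting interval of the main value. A count of members was the same when it stayed close to the main count. A turn was labelled only where the main interval excluded 1, so other ratios that crossed 1 are not among the 4. For the nuclear ratio between tumours, the denominator without mt-, ribosomal protein and haemoglobin genes gave 1.03 in T cells, 0.977 in luminal cells and 0.807 in macrophages. Every cell weighing the same gave 0.997 in luminal cells and 0.762 in macrophages, and no mt- limit gave 0.991 in luminal cells. The luminal values turned from above to below 1, and the cause was not tested. For the mt- ratio, the other denominator gave 1.42 in T cells, 1.58 in luminal cells and 1.09 in macrophages. Every cell weighing the same gave 0.905 in luminal cells, which turned the direction, and 1.16 in macrophages. No mt- limit gave 1.47 in T cells, 1.95 in luminal cells, 1.21 in macrophages and 0.587 in neutrophils. Leaving out cells with a G2 or M phase UMI gave 1.16 in macrophages and 1.11 in neutrophils. That alternative, like Ccr7 kept as a marker and a 20% limit on a second type, was chosen after seeing the data. With no UMI minimum, 1 of 80 members was lower in luminal cells, and 2 members were higher and 11 lower in neutrophils. With 50 UMIs on both sides, 0 of 4 were lower in neutrophils. The shares over all genes were not computed at these settings, so these counts cannot be set against a background. The highest class over the lowest for mt- genes was 8.23 in the Met-1 xenograft and 5.37 in the PyMT tumour with the other denominator, 8.24 and 2.48 with no mt- limit, and 6.98 and 4.8 with every cell weighing the same, which made B cells the highest in the Met-1 xenograft. For nuclear genes it was 2.93 in the Met-1 xenograft and 2.36 in the PyMT tumour with the other denominator, which made B cells the highest for mt- genes and neutrophils the lowest for nuclear genes in the PyMT tumour. Luminal cells gave no value at 1000 UMIs or without G2 and M phase cells, nor did T cells without them, because fewer than 30 cells were left in a library. Depth limits neutrophils most, with 30 of 84 members measured between tumours.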
